A study of Mus musculus with 8 samples.

Results

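A set of 10 integrin subunit genes was followed across sorted CD4+ T cells that carried a wild-type or a mutant Foxp3 allele. The genes were Itgae, Itga4, Itga6, Itgal and Itgav, which encode alpha chains, and Itgb1, Itgb2, Itgb3, Itgb7 and Itgb8, which encode beta chains. They were chosen by gene symbol with earlier results of these data known, so their shares of calls below describe a chosen set. Every probe set that the platform annotation gives to 1 of these symbols was taken. This gave 27 probe sets for 10 genes, of 45037 probe sets for 18193 genes on the array. The allele was tagged with enhanced green fluorescent protein (EGFP). Cells that expressed the tag were sorted from hemizygous males, and CD4+ cells without it were collected as well. Foxp3, encoded on the X chromosome, is the lineage factor of regulatory T cells. All groups share the tag, and the allele was either wild type (WT) or a mutant that the labels call delta and the study treats as lacking a functional protein. The 8 Affymetrix arrays comprised 3 labelled WT EGFP+, 3 labelled mutant EGFP+, 1 labelled WT EGFP- and 1 labelled mutant EGFP-. The sources used here give neither the nature of the mutation nor strain, age or pooling. Single arrays are named WT+ 1 to WT+ 3 and mut+ 1 to mut+ 3 below.

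Integrins are cell surface receptors built from an alpha and a beta chain, and the pair decides which ligand is bound. On T cells, αLβ2 (LFA-1) binds ICAM molecules on other cells, α4β1 binds VCAM-1 on inflamed endothelium, α4β7 binds MAdCAM-1 in gut vessels and α6β1 binds laminins of basement membranes. The αE chain, known as CD103, pairs with β7, binds E-cadherin on epithelial cells and marks a tissue-associated subset of regulatory T cells. Among the beta chains followed here, the αv chain pairs with β1, β3 or β8, and αvβ8 is known for releasing active TGF-beta from its latent form. TGF-beta signalling through SMAD proteins in turn promotes transcription of Itgae.

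Several properties of the arrays bear on the values that follow, which are log2 intensities. The targeted gene, Foxp3, read 4.75, 4.86 and 4.64 in the WT EGFP+ arrays, 4.52 in the WT EGFP- array, 11.10, 11.51 and 11.21 in the mutant EGFP+ arrays and 6.14 in the mutant EGFP- array. The low reading in the arrays labelled WT EGFP+ goes against that label, and the sources used here do not say where the probe set lies relative to the altered or tagged sequence. Groups are named as the arrays are labelled, and each direction between alleles rests on those labels. The median of all values was 5.75, and lower values are called low here, since no detection call was used. Cd4 lay between 11.07 and 11.42 in all 8 arrays, and all 8 measured genes of a T cell marker list lay above the median in every array. WT+ 2 and mut+ 3 stood apart from their groups in 21 immediate-early and heat shock genes, with summed intensities of 45585 and 38007 against 76608 and 78723, and 53162 and 52210, in the other arrays of the same label. Between the EGFP+ groups 5 of these 21 genes were called lower and 1 higher in the mutant (median -0.93), and their part in the integrin values was not tested. The sample titles carry numbers in 3 runs, each holding 1 WT and 1 mutant EGFP+ array, with both EGFP- arrays in the first; the labels do not say what a run stands for. Nothing states that replicates were separate mice, so the tests measure the spread between these arrays, which may be technical. In bulk RNA, fewer cells that express a gene and less RNA per cell cannot be told apart.

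In the comparison of the EGFP+ groups, the question is which integrin genes differ with the mutant allele. Itgae, Itga6, Itgb7 and Itgb8 fell in the mutant arrays, and Itgb1 and Itgb3 rose. With each gene represented by its probe set of highest mean, 4 of 10 integrin genes were lower against 6.02% of all genes, and 2 of 10 were higher against 10.4% of all genes, at an adjusted p under 0.05 in limma, with p-values adjusted by Benjamini and Hochberg's method over the whole table. The share of higher genes is near that of all genes. Over single probe sets, 13 of 27 were called against 12.7% of all probe sets, 6 higher and 7 lower. The share over all probe sets includes low ones and is higher without them. With a filter on low values 6011 of 24627 probe sets were called. Of the 27 integrin probe sets, 6 lay below the median of all values in every array. The median difference of the 10 genes was -0.30, against 0.02 over all genes. Itga4, Itgal, Itgav and Itgb2 did not pass in this comparison when represented in this way.

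**Figure D1:**
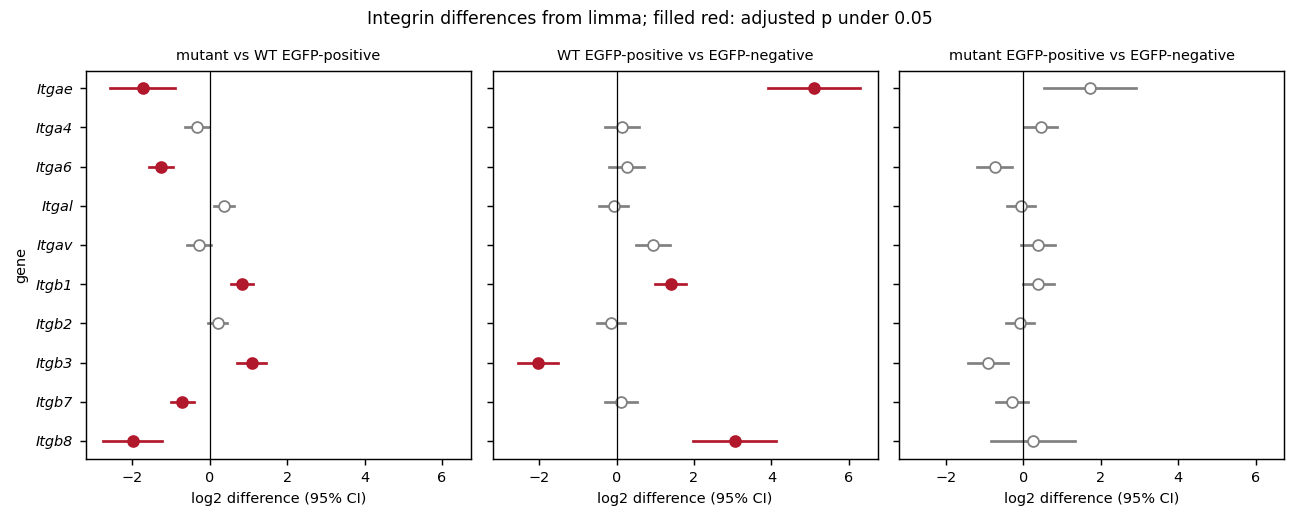
Log2 difference (x axis, with 95% confidence intervals from limma) of each of the 10 integrin genes (y axis) in 3 comparisons; filled red points have an adjusted p under 0.05. In mutant against WT EGFP+ arrays 4 genes lay left of 0 and 2 right of 0 among those called, in the WT EGFP comparison 3 lay right and 1 left, and in the mutant EGFP comparison 0 were called.

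Against EGFP- cells, the WT EGFP+ arrays differed in 4 of the 10 genes. Itgae, Itgb8 and Itgb1 were higher (3 of 10, against 1.02% of all genes) and Itgb3 was lower (1 of 10, against 0.478%). By probe set 5 of 27 passed, against 1.1% of all. With the title runs as a block 2 of 27 passed, against 0.184% of all, and Itgae was the only gene of the 4 still called. For the mutant allele 0 of 27 probe sets passed, with 0.0755% of all probe sets called, while 10 of 27 had an unadjusted p under 0.05 in limma, against 9.73% of all probe sets. By gene, the mutant comparison called 0.022% of all genes higher and 0.066% lower. Each EGFP comparison rests on 1 EGFP- array, which was assumed to vary as the replicated groups do. The difference between the alleles in the EGFP effect was tested as an interaction. It passed for 0 of 27 probe sets, against 0.04% of all probe sets (0.022% of genes higher and 0.044% lower), with 8 of 27 at an unadjusted p under 0.05, against 6.14% of all. Without WT+ 2 and mut+ 3 together, the mutant EGFP comparison called 2 of 27 integrin probe sets, against 0.722% of all probe sets, and the interaction 3 of 27, against 0.38%. Calls over the whole array rose as well under this setting, from 34 to 325 and from 18 to 171.

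**Figure D2:**
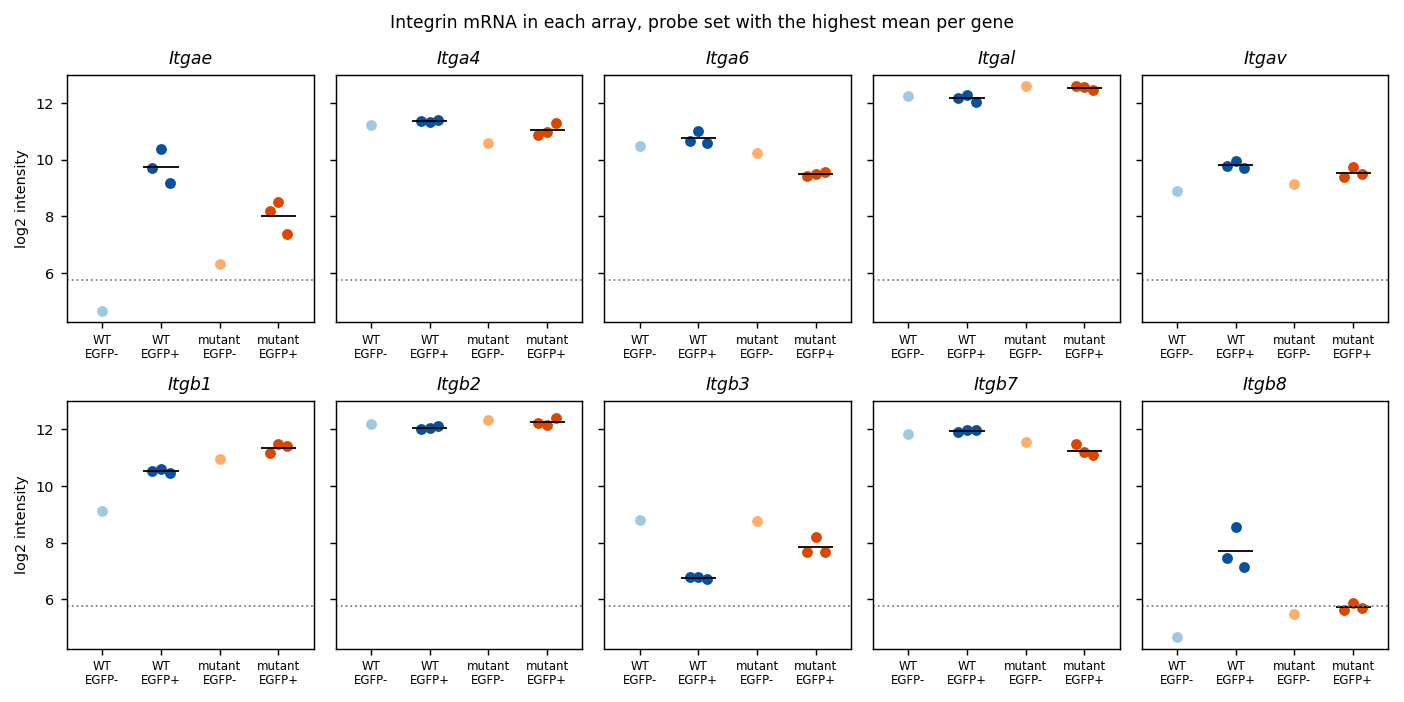
Log2 intensity (y axis) of the 10 integrin genes in each of the 8 arrays by group (x axis), with a black line at the mean of the groups with 3 arrays and a dotted line at 5.75, the median of all values. Itgae and Itgb8 lay highest in the WT EGFP+ arrays, Itgb3 lay lowest there, and Itgb1 lay highest in the mutant EGFP+ arrays.

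Itgae, on chromosome 11 (73090505 to 73147449, GRCm38.p6), encodes the αE chain of CD103 and had 2 probe sets. On 1447541_s_at the WT EGFP+ arrays read 9.72, 10.39 and 9.18, the mutant EGFP+ arrays 8.21, 8.50 and 7.39, the mutant EGFP- array 6.31 and the WT EGFP- array 4.66. The arrays of these groups did not overlap, and the order ran from WT EGFP- through mutant EGFP- and mutant EGFP+ to WT EGFP+. On 1449216_at the same order held, with 9.38, 9.93 and 9.55, then 8.24, 8.33 and 7.12, then 5.96, then 5.30. The level in the WT EGFP- array was below the median of all values on both probe sets.

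The 2 Itgae probe sets gave nearly the same fall in mutant against WT EGFP+ cells. It was -1.73 (SE 0.36, limma adjusted p = 0.019; means 9.76 ± 0.61 and 8.03 ± 0.58, SD, n = 3 each), a 3.32-fold difference, on 1447541_s_at and -1.72 (SE 0.32, adjusted p = 0.011), 3.30-fold, on 1449216_at. The first was no longer called without WT+ 1 (0.066) or mut+ 1 (0.061), within 0.0029 to 0.066 over its alternatives, while 1449216_at was called under every alternative run (0.0015 to 0.039). WT+ 2 was the highest WT array and mut+ 3 the lowest mutant EGFP+ array on both probe sets, and without this pair of arrays the differences were -1.09 and -1.18, both called. Within the 3 runs the differences were -1.51, -1.89 and -1.79 on 1447541_s_at and -1.14, -1.60 and -2.43 on 1449216_at.

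The rise of Itgae in WT EGFP+ over EGFP- cells was the largest difference of any integrin gene in the 3 tested pairwise comparisons, at 5.10 (SE 0.51, adjusted p = 0.0057) and, on 1449216_at, 4.32 (SE 0.45, 0.0065). For the mutant allele it was 1.73 (95% interval 0.54 to 2.92, adjusted p = 0.33) and 1.94 (0.89 to 2.98, 0.25), with all 3 EGFP+ arrays above the single EGFP- array. Within the first run, which held both EGFP- arrays, 1447541_s_at differed by 5.06 in WT and by 1.90 in mutant cells. On 1449216_at these differences were 4.08 and 2.28. The interaction was -3.37 (SE 0.73, unadjusted p = 0.0018, adjusted p = 0.34) and -2.39 (SE 0.64, 0.006 and 0.52). Both probe sets passed the interaction without WT+ 2 and mut+ 3 together (0.033 and 0.036, within ranges of 0.033 to 0.63 and 0.036 to 0.77). Between the EGFP- arrays, which have no replicates, the mutant array was higher by 1.64 on 1447541_s_at and by 0.66 on 1449216_at.

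CD8 T cells, which can also carry CD103, are marked by Cd8a and Cd8b1. The summed intensity of these 2 genes was 138 to 218 in the WT EGFP+ arrays, 156 to 628 in the mutant EGFP+ arrays, 282 in the WT EGFP- array and 559 in the mutant EGFP- array. Array mut+ 3 was the lowest of its group in both this sum and Itgae, whereas WT+ 2 was the lowest of its group in this sum and the highest in Itgae. Neither gene passed in mutant against WT EGFP+ arrays (Cd8a 1.81, adjusted p = 0.16; Cd8b1 0.05, 0.94), and their part in the Itgae values was not tested.

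Itgb7, on chromosome 15 (102215994 to 102233405), encodes the beta chain that αE and α4 share. It read 11.92, 11.99 and 11.97 in the WT EGFP+ arrays, 11.47, 11.19 and 11.11 in the mutant EGFP+ arrays, 11.85 in the WT and 11.56 in the mutant EGFP- array. The mutant EGFP+ arrays all lay below every other array. The fall was -0.70 (SE 0.13, limma adjusted p = 0.01), a 1.63-fold difference, and it was called under every alternative run. Against the EGFP- arrays Itgb7 differed by 0.11 in WT (95% interval -0.31 to 0.52, adjusted p = 0.93) and by -0.30 in mutant cells (-0.71 to 0.11, 0.66).

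B cells also express Itgb7, and B cell markers were measured beside it. Of 8 listed genes 7 were measured, and their summed intensity was 3126 to 7555 in the WT EGFP+ arrays, 803 to 1692 in the mutant EGFP+ arrays, 5205 in the WT EGFP- and 1579 in the mutant EGFP- array. Most of this sum is the immunoglobulin heavy chain gene Ighm, with a mean of 12.07 in the WT EGFP+ arrays, and Ighm fell by 2.24 (limma adjusted p = 0.012). The other 6 did not pass and differed in both directions, as with Ms4a1 at -0.90 (0.073), Cd79b at 0.17 (0.77) and Pax5 at -0.01 (0.99), and Blk, Pax5 and Ebf1 lay below the median of all values in every array. The part of these cells in the Itgb7 difference was not tested.

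Itga4, on chromosome 2 (79255426 to 79333114), encodes the α4 chain of both the VCAM-1 and the MAdCAM-1 receptor. Its highest probe set, 1436037_at, read 11.37, 11.32 and 11.40 in the WT EGFP+ arrays and 10.86, 10.99 and 11.28 in the mutant EGFP+ arrays, with 11.23 in the WT and 10.60 in the mutant EGFP- array. All mutant arrays lay below all WT EGFP+ arrays, but the difference of -0.32 (95% interval -0.63 to -0.01) did not pass (limma adjusted p = 0.18). The other 4 probe sets differed by between -0.11 and 0.20, and 0 of the 5 passed in any comparison.

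αvβ8, the pair that activates latent TGF-beta, is encoded by Itgav and Itgb8. Itgb8, on chromosome 12 (119162803 to 119238276), read 7.47, 8.55 and 7.13 in the WT EGFP+ arrays and 5.61, 5.88 and 5.70 in the mutant EGFP+ arrays, with 4.67 in the WT and 5.48 in the mutant EGFP- array. All 3 WT EGFP+ arrays lay above the median of all values and 1 of the 3 mutant EGFP+ arrays did, so no fold is given. The EGFP+ groups did not overlap, and the EGFP- arrays lay below both. The fall with the mutant allele was -1.99 (SE 0.33, limma adjusted p = 0.0074), the largest among the 10 genes, and was called under every alternative run. The rise in WT EGFP+ over EGFP- cells was 3.05 (SE 0.46, adjusted p = 0.027), which did not pass without WT+ 1, mut+ 1, mut+ 2 or mut+ 3, with a pseudocount or with the title runs as a block (0.00099 to 0.091 over the alternatives). In mutant cells the EGFP difference was 0.25 (95% interval -0.83 to 1.33, adjusted p = 0.92). The interaction, -2.80 (SE 0.66, adjusted p = 0.42), passed without WT+ 2, alone or with mut+ 3 (within 0.031 to 0.71 over its alternatives), the array in which Itgb8 was highest.

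Itgav, on chromosome 2 (83722303 to 83806917), had 5 probe sets. Its highest, 1452784_at, read 9.79, 9.96 and 9.71 in the WT EGFP+ arrays, 9.39, 9.74 and 9.51 in the mutant EGFP+ arrays, 8.89 in the WT and 9.16 in the mutant EGFP- array. The EGFP+ groups overlapped, with a difference of -0.28 (95% interval -0.58 to 0.03, limma adjusted p = 0.26). The difference from EGFP- cells was 0.93 in WT (SE 0.19, adjusted p = 0.085) and 0.39 in mutant cells (SE 0.19, 0.57). A dimmer probe set, 1421198_at, fell by 0.67 with the mutant allele (SE 0.17, adjusted p = 0.043). It did not pass when any EGFP+ array other than WT+ 2 was left out, nor with a pseudocount, a mean-variance trend or the block (0.012 to 0.13 over the alternatives). In the WT EGFP comparison this probe set stood at 0.94 (adjusted p = 0.2) and passed without WT+ 2 (0.032 to 0.39 over the alternatives).

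Itgb3, on chromosome 11 (104608000 to 104670476), encodes the β3 chain that pairs with αv and, in platelets, with αIIb. On 1455257_at it read 6.78, 6.80 and 6.72 in the WT EGFP+ arrays, 7.69, 8.19 and 7.67 in the mutant EGFP+ arrays, and 8.81 and 8.77 in the WT and mutant EGFP- arrays. The WT EGFP+ arrays were lowest, the EGFP- arrays of both alleles were highest and nearly equal, and the mutant EGFP+ arrays lay between. It rose with the mutant allele by 1.08 (SE 0.16, limma adjusted p = 0.0043), a 2.11-fold difference, and fell by 2.04 in WT EGFP+ against EGFP- cells (SE 0.22, adjusted p = 0.0077, and 0.061 with the title runs as a block, within 0.0034 to 0.061). In mutant cells the EGFP difference was -0.93 (95% interval -1.44 to -0.41, adjusted p = 0.26). The second probe set, 1421511_at, moved the same way, by 0.78 between the EGFP+ groups (SE 0.17, 0.024). That rise did not pass without WT+ 1, WT+ 3 or mut+ 1 (0.018 to 0.092 over the alternatives). Against EGFP- cells 1421511_at differed by -0.99 in WT (adjusted p = 0.18) and by -0.42 in mutant cells (0.65), and neither passed. On this probe set mut+ 2, at 7.04, lay above the WT EGFP- array, at 6.87. A list of platelet and erythroid genes, 7 of 10 measured, had a summed intensity of 415 to 448 in the WT EGFP+ arrays and 406 to 451 in the mutant EGFP+ arrays, with 446 and 380 in the WT and mutant EGFP- arrays. Of the 7, 3 lay above and 2, Ppbp and Hba-a1, below the median of all values in every array, and 0 passed in any comparison. Itga2b, which encodes αIIb, read 6.87 to 7.21 in the WT EGFP+ arrays, 6.91 to 6.97 in the mutant EGFP+ arrays, and 7.08 and 6.65 in the WT and mutant EGFP- arrays. The part of platelets in the Itgb3 values was not tested.

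Itgb1, on chromosome 8 (128685654 to 128733579), encodes the β1 chain, which pairs with α4, α6 and many other alpha chains. On 1452545_a_at it read 9.13 in the WT EGFP- array, 10.52, 10.61 and 10.45 in the WT EGFP+ arrays, 10.97 in the mutant EGFP- array and 11.17, 11.49 and 11.41 in the mutant EGFP+ arrays. The groups did not overlap, and both mutant groups lay above both WT groups. The rise with the mutant allele among EGFP+ cells was 0.83 (SE 0.12, limma adjusted p = 0.0046), a 1.78-fold difference, with 0.87 (SE 0.14, 0.0073) on 1426918_at; both were called under every alternative run. A dimmer probe set, 1427771_x_at, rose by 0.81 (adjusted p = 0.037), which did not pass without WT+ 1, WT+ 3, mut+ 1 or mut+ 2 (0.0036 to 0.13 over the alternatives). The rise in WT EGFP+ over EGFP- cells was 1.40 (SE 0.17, adjusted p = 0.011), a 2.64-fold difference, lost with the title runs as a block (0.1; 0.0045 to 0.1 over the alternatives). This rise did not pass on 1426918_at (1.04, adjusted p = 0.075) or on 1427771_x_at (0.58, 0.61). On 1426918_at it passed with a mean-variance trend (0.048 to 0.27 over the alternatives). In mutant cells the difference on 1452545_a_at was 0.38 (95% interval -0.02 to 0.79, adjusted p = 0.54). On the same probe set the mutant EGFP- array lay 1.84 above the WT EGFP- array.

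Itga6, on chromosome 2 (71786886 to 71858427), encodes the α6 chain of laminin receptors. On 1422445_at it read 10.67, 11.00 and 10.61 in the WT EGFP+ arrays, 9.41, 9.50 and 9.58 in the mutant EGFP+ arrays, 10.50 in the WT and 10.24 in the mutant EGFP- array. The mutant EGFP+ arrays were set apart below all the others. The fall was -1.26 (SE 0.14, limma adjusted p = 0.0011), a 2.40-fold difference, and -1.57 (SE 0.13, 0.00034) on 1422444_at, and both probe sets were called under every alternative run. Against EGFP- cells 1422445_at differed by 0.26 in WT (SE 0.19, limma adjusted p = 0.78) and by -0.74 in mutant cells (SE 0.19, 0.29). On 1422444_at these differences were 0.68 (SE 0.18, 0.21) and -1.05 (SE 0.18, 0.12). The interaction was -0.998 on 1422445_at (SE 0.27, unadjusted p = 0.0066, adjusted p = 0.54). It was -1.73 on 1422444_at (SE 0.26, unadjusted p = 0.00017, adjusted p = 0.11).

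The promoters of the beta chain genes are shown because Itgb8 and Itgb7 fell and Itgb1 rose in the same arrays. RefSeq promoter windows (GRCm38.p6) were at hand for 5 of the 10 genes, Itga4, Itgav, Itgb1, Itgb7 and Itgb8, and the 250 bases before the start of the table's transcript are printed for these 3, 5′ to 3′ on the gene's strand. The Itgb7 and Itgav windows lie inside the coordinates given here for these genes, while the others end directly before the gene's first base. Capitals mark matches, on either strand, to a RUNX motif (TGTGGT), a SMAD half-site (CAGAC), a forkhead motif (TGTTTAC) or a GC box (GGGCGG).
Itgb8 promoter, chr12:119238277-119238526, minus strand: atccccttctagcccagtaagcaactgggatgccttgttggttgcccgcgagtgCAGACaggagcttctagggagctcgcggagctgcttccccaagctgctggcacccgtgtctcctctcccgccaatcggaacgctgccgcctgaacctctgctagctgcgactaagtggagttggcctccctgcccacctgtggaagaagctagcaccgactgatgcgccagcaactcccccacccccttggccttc
Itgb7 promoter, chr15:102231936-102232185, minus strand: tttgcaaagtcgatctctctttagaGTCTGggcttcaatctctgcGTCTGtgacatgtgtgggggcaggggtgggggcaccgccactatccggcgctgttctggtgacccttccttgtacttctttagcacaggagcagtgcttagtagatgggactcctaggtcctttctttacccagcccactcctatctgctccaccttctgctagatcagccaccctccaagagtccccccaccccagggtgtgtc
Itgb1 promoter, chr8:128685404-128685653, plus strand: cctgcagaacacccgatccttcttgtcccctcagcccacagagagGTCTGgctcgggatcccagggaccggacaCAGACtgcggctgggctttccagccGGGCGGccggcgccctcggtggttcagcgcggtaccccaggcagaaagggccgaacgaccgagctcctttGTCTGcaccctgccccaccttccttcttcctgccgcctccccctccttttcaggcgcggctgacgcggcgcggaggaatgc
Itgb8 held 1 SMAD half-site, Itgb7 held 2, and Itgb1 held 3 with 1 GC box. In all 32851 windows of this length a SMAD half-site was found in 42.2%, a GC box in 32.7%, a RUNX motif in 14.0% and a forkhead motif in 3.17%. The half-site, which is common, thus lay in Itgb7 and Itgb8, which fell, and in Itgb1, which rose. Itgae, Itga6 and Itgb3, the other genes called between the EGFP+ groups, had no window. Itga4 held 1 RUNX motif, 1 SMAD half-site and 1 GC box, and Itgav held 0 matches. A match describes these letters and is not evidence of binding.

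LFA-1 is encoded by Itgal, on chromosome 7 (127296139 to 127335137), and Itgb2, on chromosome 10 (77530329 to 77565708). The 2 Itgal probe sets differed in the size of the change. On 1435560_at Itgal read 12.19, 12.28 and 12.04 in the WT EGFP+ arrays and 12.61, 12.56 and 12.45 in the mutant EGFP+ arrays, with 12.25 and 12.61 in the WT and mutant EGFP- arrays. The difference of 0.37 (95% interval 0.11 to 0.64) did not pass (limma adjusted p = 0.076). It passed with a pseudocount or with a mean-variance trend (0.019 to 0.22 over the alternatives). On 1425367_at the WT EGFP+ arrays read 9.47, 9.29 and 9.28 and the mutant EGFP+ arrays 10.28, 10.15 and 10.50, with 8.99 and 10.23 in the WT and mutant EGFP- arrays. All 4 mutant arrays thus lay above all 4 WT arrays on that probe set. The rise was 0.96 (SE 0.13, adjusted p = 0.0029), a 1.95-fold difference, and it was called under every alternative run. Between EGFP+ and EGFP- mutant cells this probe set differed by 0.08 (95% interval -0.34 to 0.50).

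Itgb2, the beta chain of LFA-1, had 1 probe set. It read 12.02, 12.06 and 12.11 in the WT EGFP+ arrays, 12.24, 12.16 and 12.40 in the mutant EGFP+ arrays, 12.20 in the WT and 12.35 in the mutant EGFP- array. The range over all 8 arrays was thus narrow, and the difference of 0.20 (95% interval -0.05 to 0.46, limma adjusted p = 0.32) did not pass. NK cells are rich in LFA-1, and genes of an NK list, 6 of 7 measured, had a summed intensity of 201 to 275 in the WT EGFP+ arrays, 3074 to 4574 in the mutant EGFP+ arrays, 379 in the WT and 2665 in the mutant EGFP- array. Most of this sum in the mutant arrays is Gzma alone. Its mean was 11.74 in the mutant and 5.56 in the WT EGFP+ arrays, and it read 10.94 in the mutant EGFP- array. Of the 6, Gzma, Klrd1, Klrk1 and Eomes rose between the EGFP+ groups. The NK receptor genes Ncr1 (0.08, limma adjusted p = 0.81) and Klra8 (0.05, 0.86) did not pass. Klra8 lay below the median of all values in every array, while Ncr1 read 6.41 in the mutant EGFP- array and 5.37 in the WT EGFP- array. The part of such cells in the Itgal and Itgb1 values was not tested.

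**Figure D3:**
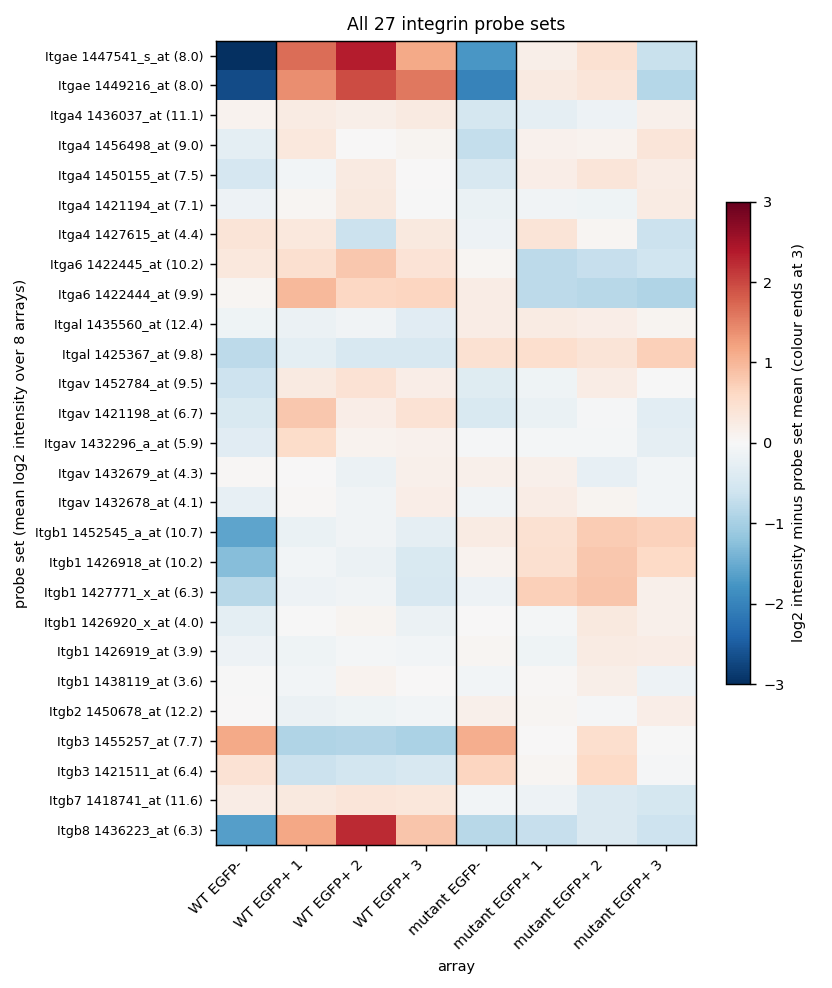
Log2 intensity of the 27 integrin probe sets (rows, with the mean over 8 arrays in brackets) minus each probe set's own mean, in each array (columns); red is above and blue below that mean. Within Itgae, Itga6 and Itgb3 the probe sets of each gene differ in the same direction between the EGFP+ groups. The 6 probe sets of Itga4, Itgav and Itgb1 that lay below the median of all values in every array show little difference between groups.

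Over the EGFP- arrays alone, 2 of 10 genes, Itgae and Itgb1, were at least 2-fold higher in the mutant array, against 3.78% of all genes, and 0 of 10 were at least 2-fold lower, against 1.04%. By probe set 4 of 27 were past that size, against 4.53% of all, namely 1 of Itgae, 2 of Itgb1 and 1 of Itgal. With 1 array each this comparison has no replicate check.

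Other genes around integrins were counted from lists of related genes, in mutant against WT EGFP+ arrays. Of 14 measured other integrin subunits, 1 rose and 0 fell (median 0.07), against 10.4% and 6.02% of all genes. That gene was Itga7 (0.55, limma adjusted p = 0.025), a laminin receptor chain, whose call was lost without WT+ 3, mut+ 1 or mut+ 2 (0.021 to 0.093 over the alternatives). The count was 2 without WT+ 2 or mut+ 3. Itga8, Itga10, Itgam, Itgb4 and Itgb6 had means below the median of all values in every group, where differences can be compressed. Of 30 genes of the machinery that switches integrins on, 0 rose and 5 fell (median 0.04), against 10.4% and 6.02% of all genes. They included Dock2, a Rac activator needed for lymphocyte migration (-0.77, adjusted p = 0.015), Apbb1ip, the RIAM adaptor that links Rap1 to talin (-0.68, 0.028), Stk4, the kinase MST1 (-0.63, 0.014), and Rasgrp1, an exchange factor for Ras (-0.61, 0.0083). Of these 4, Rasgrp1 was called under every alternative run, and the count of fallen genes was 2 without mut+ 1 or mut+ 2 and 3 without WT+ 1 or WT+ 3. The count of risen genes was 2 without WT+ 2 and 1 without mut+ 3, and it was 2 with a filter on low values and 3 with a pseudocount.

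Of 14 genes of integrin ligands, 0 rose and 2 fell (median 0.07), against 10.4% and 6.02% of all genes. Madcam1, Cdh1, Vtn, Thbs1 and Tnc had means below the median of all values in every group. The laminin chain gene Lamc1 fell by 1.06 (SE 0.15, limma adjusted p = 0.0032), from 7.74 to 6.68, and the LFA-1 ligand gene Icam2 fell by 0.62 (SE 0.16, 0.041). The call of Icam2 was lost when any of WT+ 1, WT+ 2, WT+ 3, mut+ 1 or mut+ 2 was left out, and with the title runs as a block (0.028 to 0.14 over the alternatives). The count of fallen genes was then 1, except without WT+ 2, where it was 2. In WT EGFP+ against EGFP- cells Lamc1 (2.58, adjusted p = 0.0026) and Icam1 (1.26, 0.033) rose. Icam1 encodes the main ligand of LFA-1, and the count of 2 became 1 without any of mut+ 1, mut+ 2, mut+ 3 or WT+ 3, and with the block.

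Of 21 measured genes of the TGF-beta pathway and the RUNX factors, 4 rose and 8 fell with the mutant allele (median -0.16), against 10.4% and 6.02% of all genes. Smad7, the inhibitory SMAD, fell by 1.52 (SE 0.32, limma adjusted p = 0.019) and Skil, a SMAD corepressor, fell by 1.05 (SE 0.22, 0.018). Runx3, a transcription factor of cytotoxic T cells that is known to act on Itgae, rose by 1.12 (SE 0.16, 0.0035). The ligand gene Tgfb3 rose by 1.04 (SE 0.17, 0.0066), from a low mean of 4.86 to 5.89. Runx3 and Tgfb3 were called under every alternative run. Smad7 was not called without WT+ 1, WT+ 3, mut+ 2 or mut+ 3 (0.00045 to 0.07 over the alternatives), nor Skil without WT+ 1, WT+ 3 or mut+ 2 (0.0016 to 0.069). The count of fallen genes was 3 to 5 when 1 array other than WT+ 2 was left out, and that of risen genes was 2 without WT+ 1 or mut+ 2 and with quantile normalization. Against EGFP- cells, the WT EGFP+ arrays had 1 gene higher, the receptor gene Tgfbr1 (1.56, adjusted p = 0.0093), and 1 lower, the coreceptor gene Tgfbr3 (-2.20, 0.0078). Both of these calls were lost with the title runs as a block. In the mutant EGFP comparison and the interaction 0 genes of these 4 lists passed in limma, under any alternative run, with 0 to 4 and 0 to 5 genes per list at an unadjusted p under 0.05, against 11% and 6.76% of all genes.

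**Figure D4:**
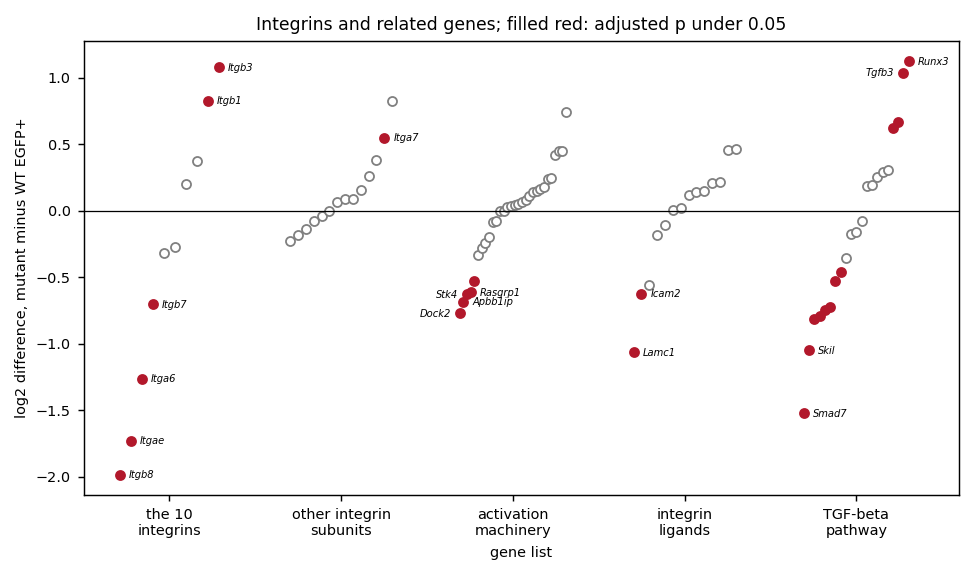
Log2 difference between mutant and WT EGFP+ arrays (y axis) for the 10 integrin genes and 4 lists of related genes (x axis), 1 point per gene in order of size within each list; filled red points have an adjusted p under 0.05, and the called integrins and the largest called genes of each list are named. Calls lie on both sides of 0 among the integrins and the TGF-beta pathway genes below 0 in the activation machinery and the ligands, and above 0 for 1 of the other subunits.

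The genes whose pattern over the 8 arrays was most like that of Itgae were sought among 2090 genes with a range of group means of at least 1. The highest Pearson correlations were with Nrp1, a semaphorin coreceptor typical of thymus-derived regulatory T cells (0.99), Niban1 (0.99), Lamc1 (0.99), the actin-capping gene Capg (0.98) and S100a10, an annexin partner (0.98). The lowest were with Mctp2 (-0.97), Klhdc2 (-0.97) and Snn (-0.96). Nrp1 read 11.00, 11.64 and 10.70 in the WT EGFP+ arrays, 9.55, 10.17 and 9.47 in the mutant EGFP+ arrays, 7.34 in the WT and 8.69 in the mutant EGFP- array, the same order of groups as Itgae. Within the family, Itgav on 1452784_at (0.97) and Itgb8 (0.90) were most like Itgae and Itgb3 on 1455257_at was least like it (-0.89), while Itgb7 stood at 0.26. These correlations describe 8 arrays that fall into 4 groups and are not tests.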

How the data were processed

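RNA was prepared with RNEasy and labelled by the Affymetrix biotin method, per the labels' protocols. The deposited table holds the authors' RMA output as linear intensity per probe set, per the submitters' processing notes and its values; RMA can compress differences of dim probe sets. The sources used here give no software version or detection call.

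Of 45101 probe sets, 64 controls were left out. The platform annotation gave 1 symbol to 34945, several to 932, and 9160 are unnamed here; 34741 were matched to a RefSeq symbol. Log2 values of 8 arrays were fitted by group in limma 3.58.1 (R 4.3.3; 4 residual and 3.72 prior degrees of freedom), two-sided, adjusted over 45037 probe sets, after tests on simulated arrays. With 3 arrays against 3, exact permutation reaches no p under 0.1. Array medians were 53.3 to 54.7, and the number of arrays limits precision. The probe set of highest mean stood for a gene; folds need both means above the median of all values. All 10 integrin genes were named, up to 4 called genes per related list by size, and the 5 genes most and 3 least like Itgae. Members, lists and tests were chosen with earlier results of these data known. Alternatives were a filter on low values, a pseudocount of 16, quantile normalization, a mean-variance trend, title runs as a block, arrays left out, lowest-mean probe sets, and EGFP+ arrays alone.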

Additional observations from a re-analysis of the deposited data

How the results depend on the processing

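The 17 integrin probe sets that stood for a gene or were called, and the counts, were recomputed under each alternative. In mutant against WT EGFP+ arrays, 9 to 13 probe sets were called when 1 array was left out (13 in full), and no count of called genes moved by over 1.5 times. With the lowest-mean probe sets the count of risen genes held, but its genes changed. Itgal (1425367_at, 0.96) was called in place of Itgb1 (1438119_at, 0.0035). In the WT EGFP comparison the block of title runs left 2 called probe sets, with 1 gene higher and 0 lower, and the lowest-mean probe sets gave 0 genes lower. With WT+ 2 and mut+ 3 both left out, the mutant EGFP comparison called 2 probe sets and 1 gene higher, and the interaction 3 probe sets and 2 genes lower; leaving out 1 array gave 0 to 1 for the interaction, both for probe sets and for genes lower. The cause was not tested. Arrays of the same title run did not deviate together from their group means (correlations 0.12, 0.05 and -0.10), so the runs were not taken as pairs; apart from that block, no paired analysis was possible because the labels number no replicates.

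Signs turned only in values that were not called. With the lowest-mean probe set, Itgav stood at 0.038 between the EGFP+ groups, Itga4 at -0.39 and Itgal at 0.35 in the WT EGFP comparison, Itgal at 0.083 in the mutant one, and Itgal at -0.27 and Itgb1 at 0.084 in the interaction. Without the same 2 arrays Itgal 1425367_at stood at -0.010 in the mutant EGFP comparison and Itgb2 at -0.0074 in the interaction. With 1 array left out Itgal 1425367_at ranged from -0.010 to 0.16 in the mutant EGFP comparison, and in the interaction Itgb1 1427771_x_at from -0.0047 to 0.34, Itgal 1435560_at from -0.050 to 0.070 and Itgb2 from -0.0073 to 0.11.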

Other observations

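Probe sets that the platform annotation ties to the same sequence record did not always read alike. For Itgb1, 1426918_at ranged from 8.88 to 10.97 over the 8 arrays, while 1426920_x_at ranged from 3.71 to 4.32 and 1426919_at from 3.69 to 4.09, all 3 from the same record. A second record gave 1452545_a_at between 9.13 and 11.49 and 1427771_x_at between 5.52 and 7.19. The 2 probe sets of Itga6, which also share a record, ranged from 9.41 to 11.00 and from 9.03 to 10.88. In all, 6 of the 27 integrin probe sets lay below the median of all values in every array, between the 0.606 and the 29.4 percentile, and a table reduced to the lowest-mean probe set of each gene would represent Itga4, Itgav and Itgb1 by such values.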
